A study of Bos taurus with 3 samples.

Results

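The lysyl oxidase family was examined in BFF116 cells, bovine fetal fibroblasts whose nuclei are used to clone cattle by transfer into egg cells. The 5 members, LOX and its 4 paralogs LOXL1, LOXL2, LOXL3 and LOXL4, were chosen by gene symbol, and all 5 have a row among the 31903 genes of the table. RNA of 3 replicates of a single group was sequenced, each from 70000 cultured cells held without serum for 48 h and snap-frozen. The labels name no genotype and no added agent. Cells with serum were not analysed here, so nothing below separates starvation from culture, and the labels call the replicates biological without saying whether they are separate cultures or animals. Replicates 1, 2 and 3 had 8608350, 4842331 and 7122651 reads in genes. The labelled cell type was checked on marker lists: 11 of 11 fibroblast markers reached 1 CPM (counts per 1000000 gene reads, after scaling of library sizes) in each of the libraries, with a summed level of 34957 to 35950 CPM, and 0 of 6 epithelial markers did, with a summed level of 1.90 to 4.63 CPM. Of other markers, 2 of 4 endothelial, 1 of 4 leukocyte, 0 of 4 cartilage and 3 of 6 smooth muscle genes reached this level. Their summed levels were 5.64 to 12.2, 2.02 to 6.05, 0.704 to 2.02 and 3724 to 4527 CPM. In every library, 1 CPM was reached by 34.6% of genes in the table and by 61.2% of those with a read. The counts of 2 of 4 and 3 of 6 lie between these shares, so they do not settle whether such cells were present. The smooth muscle sum was nearly all ACTA2 (4029.6 ± 383), with CNN1 at 67.7 ± 27.0 and SMTN at 10.8 ± 4.89 CPM, while MYH11 had 41, 2 and 7 reads and DES and MYOCD had 0.

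Lysyl oxidases are secreted copper enzymes that oxidise lysine and hydroxylysine side chains of collagens and elastin to reactive aldehydes, which then condense into the covalent crosslinks that give matrix its strength. Each carries a catalytic domain with a bound copper ion and a cofactor made from the enzyme's own lysine and tyrosine. LOX and LOXL1 are made as proenzymes whose propeptide is removed outside the cell by BMP1-type proteases, whereas LOXL2, LOXL3 and LOXL4 carry scavenger receptor cysteine-rich repeats in place of that propeptide. In fibroblasts the family acts beside the collagen-modifying enzymes of the secretory pathway and is known as a target of transforming growth factor beta and of hypoxia.

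LOX and LOXL2 held nearly all of the family's reads. All 5 members reached 1 CPM in every library, as did 34.6% of the genes in the table and 61.2% of those with a read. LOX, the founding member and the enzyme most tied to fibrillar collagen and elastin, stood at 1669, 1461 and 1404 CPM in replicates 1 to 3, a mean of 1511 ± 140 (SD, n = 3), from 14048, 7248 and 9975 reads. It was highest in replicate 1 and similar in the other libraries. Among the 18039 genes with a read, LOX ranked 55th, 62nd and 71st by CPM.

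LOXL2, which acts on the type IV collagen of basement membranes and also has described roles in the nucleus, stood at 615, 742 and 866 CPM (741 ± 125, SD, n = 3). Unlike LOX it was lowest in replicate 1 and highest in replicate 3. The rank of LOXL2 was 224th, 168th and 140th in replicates 1 to 3. LOXL4, the closest in structure to LOXL2 and LOXL3, gave 127, 153 and 153 CPM (144 ± 15.0, SD, n = 3) and was lowest in replicate 1. Its rank moved from 1438th in replicate 1 to 1063rd and 1030th in the other libraries.

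LOXL1 and LOXL3 were the low members. LOXL1, the paralog needed for elastic fibre renewal, stood at 19.7, 47.4 and 55.4 CPM (40.8 ± 18.7, SD, n = 3), from 166, 235 and 394 reads. Replicate 1, the library with the most reads, held the fewest LOXL1 reads in number, and its exact 95% Poisson interval of 16.8 to 23.0 CPM lay below those of replicate 2 (41.5 to 53.8) and replicate 3 (50.1 to 61.2). LOXL3, linked to palate and spine development, stood at 12.8, 10.9 and 7.88 CPM (10.5 ± 2.49, SD, n = 3), from 108, 54 and 56 reads. The intervals of LOXL3 in replicate 1 (10.5 to 15.5 CPM) and replicate 3 (5.95 to 10.2 CPM) did not overlap, and that of replicate 2 (8.17 to 14.2 CPM) overlapped both. These intervals cover counting error only. Every pair of libraries exceeded counting error over all genes, so intervals that do not overlap are not particular to these members.

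**Figure D1:**
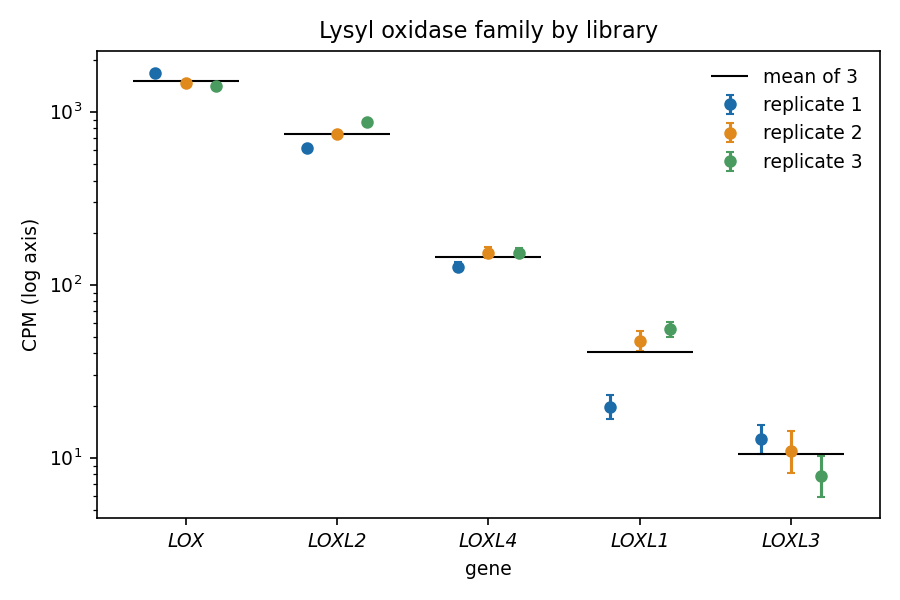
CPM on a log axis for the 5 family members, ordered by mean, with 1 point per library, exact 95% Poisson intervals as error bars and the mean of 3 libraries as a black line. LOX (1511) and LOXL2 (741) lie above LOXL4 (144), LOXL1 (40.8) and LOXL3 (10.5), and the 3 points of LOXL1 are the most spread of the family.

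The order of CPM within a library was LOX, LOXL2, LOXL4, LOXL1 and LOXL3 in all 3 libraries. CPM is not divided by transcript length, and transcript lengths were not used here, so this is an order of read numbers rather than of transcripts. LOX had 2.71, 1.97 and 1.62 times the reads of LOXL2 in replicates 1 to 3, a log2 ratio of 1.04 ± 0.37 (SD, n = 3). If LOX transcripts were longer than those of LOXL2 by that factor, the levels per length would be equal, so the order of these neighbours in transcripts is not settled by the reads.

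Further apart in the order the read ratios were large. LOX had 9.19 to 13.1 times the reads of LOXL4, 25.3 to 84.6 times those of LOXL1 and 130 to 178 times those of LOXL3. LOXL2 had 4.84 to 5.67 times the reads of LOXL4, and their log2 ratio of 2.35 ± 0.13 (SD, n = 3) had the smallest SD of the 10 pairs. LOXL1 and LOXL3 were the closest low members in replicate 1, where LOXL1 had 1.54 times the reads of LOXL3, and stood apart in replicate 3, where it had 7.04 times. Each of the 10 pairs kept its direction in 3 of 3 libraries. The two-sided exact sign-flip permutation test gave p = 0.25 for each pair, before and after Benjamini-Hochberg adjustment over the 10 pairs, which is the smallest p that 3 libraries allow.

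The summed family level was more even between libraries than the members were. The sum was 2444, 2414 and 2486 CPM (2448 ± 36.2, SD, n = 3). Its coefficient of variation of 1.48% was below that of every member, from 9.24% for LOX to 45.9% for LOXL1. The sum was mostly LOX and LOXL2, which moved in opposite ways, and its lowest library was replicate 1 with total-count scaling. Whether other sets of genes give as even a sum was not tested. LOX made up 68.3% of family reads in replicate 1 (exact Clopper-Pearson 95% interval 67.6 to 68.9), 60.5% in replicate 2 (59.6 to 61.4) and 56.5% in replicate 3 (55.7 to 57.2). LOXL2 made up 25.2% (24.6 to 25.8), 30.7% (29.9 to 31.6) and 34.8% (34.1 to 35.6). The intervals of the 3 libraries do not overlap for either gene, so the shares of these libraries differed by more than counting error. Every pair of libraries also exceeded counting error over all genes, with a chi-square per degree of freedom of 10.5 to 36.7, so this is not particular to the family.

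The shares are of reads, and their sizes and changes would differ per transcript length, whereas the change of a ratio between members across libraries does not depend on length. By that measure the ratio of LOX to LOXL2 reads was 1.67 times as high in replicate 1 as in replicate 3. LOX and LOXL2 together held 93.5, 91.2 and 91.3% of family reads. LOXL4 held 5.20, 6.34 and 6.15%, with the intervals of replicates 2 (5.91 to 6.80) and 3 (5.80 to 6.51) overlapping. LOXL1 held 0.807, 1.96 and 2.23%, and LOXL3 0.525, 0.451 and 0.317%. Since the cells were measured in bulk, fewer cells with a transcript and less of it per cell cannot be told apart.

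**Figure D2:**
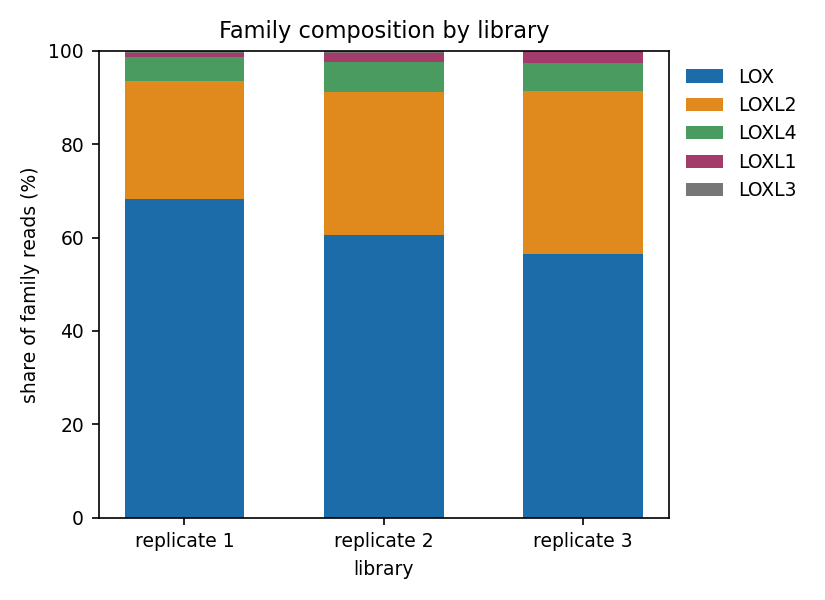
Share of the family's reads (%) held by each member in each library, as stacked bars from 0 to 100. LOX falls from 68.3% of the bar of replicate 1 to 56.5% in that of replicate 3, LOXL2 takes 25.2 and 34.8%, and LOXL3 is barely visible at under 1%.

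None of the members varied between replicates beyond other genes of its level at an adjusted p under 0.05. The spread was fitted with edgeR on the 10434 genes that had at least 10 counts in each library, where the common biological coefficient of variation was 0.273. The test called 0 of 5 members and 2 genes in all, 0.0192% of those tested, namely CLK1 and LOC101909968, which were named after their values were seen. LOXL1 came nearest, with an unadjusted p of 0.036 and an adjusted p of 0.87 from edgeR, and it was the 1 member of 5 under an unadjusted 0.05, against 5.24% of all genes tested. By edgeR's deviance test 0 of 5 members were called as well, with 15 genes in all. Leaving out replicate 1 gave 6 called genes, and leaving out replicate 2 or replicate 3 gave 0, with 0 members among them each time. On simulated data for 3 replicates, this procedure called 2 of 98 genes raised 2-fold in a single library and 72 of 98 raised 4-fold. LOXL1, with a 2.81-fold range, was instead low in a single library, a shape that was not simulated. These calls therefore do not say how often a spread like that of LOXL1 would be found.

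On the log2(CPM + 0.5) scale, the SD of LOXL1 over libraries was 0.79, at the 94.9th percentile of the genes tested. The SDs of the other members were 0.13 for LOX, 0.15 for LOXL4, 0.25 for LOXL2 and 0.34 for LOXL3, against a median of 0.31 over all genes tested. LOXL3, with the fewest reads, had an SD close to that median.

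**Figure D3:**
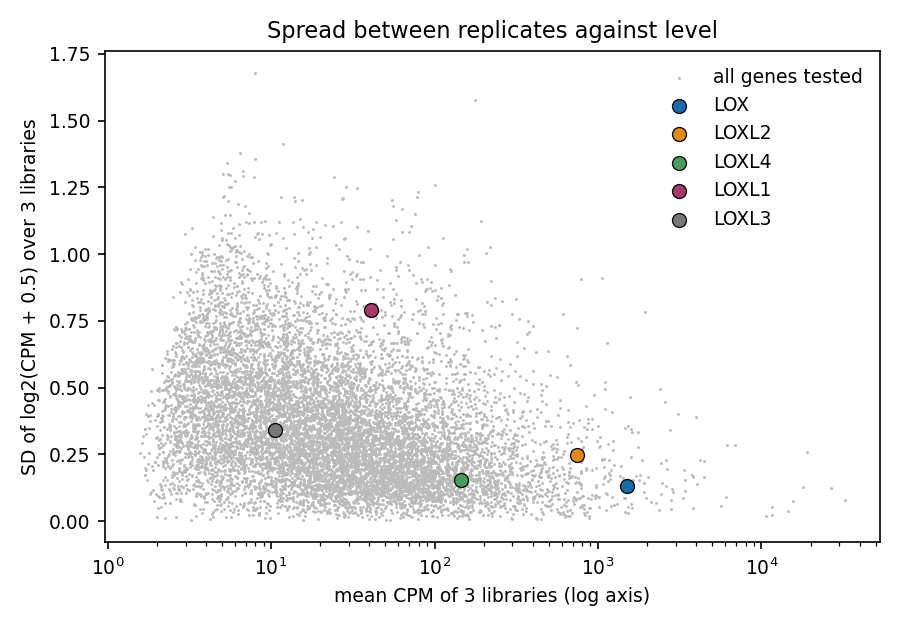
SD of log2(CPM + 0.5) over the 3 libraries against mean CPM (log axis), with all 10434 genes tested in grey and the family members in colour. LOXL1 sits high in the cloud at 0.79, and the other members lie between 0.13 and 0.34.

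Members moved in opposite ways between replicate 1 and the other libraries. LOX and LOXL3 were highest in replicate 1 and lowest in replicate 3, LOXL1 and LOXL2 the reverse, and LOXL4 was lowest in replicate 1; these orders held with TMM, DESeq2 and total-count scaling. The log2 level in replicate 1 minus the mean of replicates 2 and 3 was 0.45 for LOXL3, 0.22 for LOX, -0.27 for LOXL4, -0.38 for LOXL2 and -1.36 for LOXL1. The family thus had 3 of 5 members lowest and 2 of 5 highest in replicate 1, where 40.3% of all genes tested were lowest and 39.3% highest, so its count is near the background. The full order from lowest in replicate 1 to highest in replicate 3, shown by 2 of 5 members, was shown by 25.9% of genes tested, and the reverse order, shown by the same number of members, by 25.5%. LOXL1 was the member farthest out among genes, at percentile 1.51 of this difference. Reads outside annotated genes were 59.2, 58.9 and 62.0% of counted reads in replicates 1 to 3, and their part in these differences was not tested.

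Genes of the activating and presenting proteins were mostly abundant. Of 13 listed genes 10 reached 1 CPM in every library, against 34.6% of genes in the table and 61.2% of those with a read. The median of the list was 144 CPM, against 4.96 over genes with a read. The highest were the matrix proteins THBS1 (15509 ± 778), FN1 (11556 ± 178), whose fibronectin binds LOX and aids its activation, and POSTN (2615 ± 414), whose periostin brings BMP1 to the matrix. The elastic fibre protein FBLN5, which binds LOXL1, stood at 1005 ± 63.4 CPM, and EFEMP2, the fibulin that binds pro-LOX, at 144 ± 13.6. PCOLCE, an enhancer of BMP1 on procollagen, stood at 652 ± 163 and FMOD, a collagen-binding proteoglycan that can carry LOX, at 410 ± 60.3.

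BMP1, the protease that releases active LOX, was far lower in reads than its substrate, at 21.3, 28.0 and 42.1 CPM (30.4 ± 10.6, SD, n = 3). Its relatives TLL1 and TLL2 had 0 reads throughout, which in the shallowest library still permits a level of 0.605 CPM, provided reads could be assigned to them. ADAMTS14, a procollagen protease of the same group as ADAMTS2, had 0, 2 and 5 reads. BMP1 was lowest in replicate 1 and LOX highest there, so the reads of LOX per 100 of BMP1 were 7848, 5214 and 3336. BMP1 was named here after its values were seen, and the ratio is a description of these libraries.

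LOX reads kept a steadier ratio to COL3A1 and COL1A2 reads than to those of COL1A1. Of 14 substrate genes 11 reached 1 CPM in every library, against 34.6% of genes in the table and 61.2% of those with a read. The highest substrate genes were COL3A1 (32239 ± 1761), COL1A2 (26737 ± 2306) and COL1A1 (19062 ± 3563), then COL5A2 (4448 ± 526), COL11A1 (2123 ± 102) and COL5A1 (681 ± 146). LOX gave 4.92, 4.80 and 4.33 reads per 100 of COL3A1 and 5.75, 5.99 and 5.23 per 100 of COL1A2, but 9.81, 8.59 and 6.06 per 100 of COL1A1. The highest ratio was 1.14 times the lowest for COL3A1 and for COL1A2, and 1.62 times for COL1A1. Outside this list it was 1.13 times for SLC31A1, 1.17 for FN1, 1.21 for POSTN, 2.06 for PLOD2 and 2.35 for BMP1. A steady ratio to LOX was thus not particular to the substrates, and the pairs were chosen after their values were seen.

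The elastin substrate was almost unread. ELN had 11, 2 and 4 reads, and the cartilage collagens COL2A1 and COL11A2 had 0, 0 and 2 reads and 0 in every library. LOXL1 was read in cells with next to no reads counted for ELN, though such low counts may also mean that reads were not assigned to the gene. The microfibril gene FBN1, whose fibrillin scaffolds elastin, stood at 2262 ± 109 CPM and its paralog FBN3 at 0 reads. Of 11 microfibril genes 10 reached 1 CPM in every library, against 34.6% of genes in the table and 61.2% of those with a read. For LOXL2, the type IV collagen genes COL4A1 (74.0, 106 and 119 CPM) and COL4A2 (9.86, 21.2 and 34.6 CPM) were, like LOXL2, lowest in replicate 1 and highest in replicate 3. That order was shown by 25.9% of all genes tested, and both genes were named after their values were seen. LOXL2 gave 832, 703 and 730 reads per 100 of COL4A1, and 6242, 3507 and 2502 per 100 of COL4A2.

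The enzymes that prepare lysines before LOX acts, and their partners, were mostly lowest in replicate 1. All 8 of 8 genes in this list reached 1 CPM in every library, against 34.6% of genes in the table and 61.2% of those with a read. PLOD2, the lysyl hydroxylase of collagen telopeptides, stood at 525, 312 and 214 CPM (350 ± 159, SD, n = 3), highest in replicate 1 as LOX was. The collagen chaperone SERPINH1 stood at 631, 767 and 914 CPM (771 ± 142, SD, n = 3), lowest in replicate 1 as LOXL2 was. FKBP10 (359 ± 67.2), an isomerase that supports PLOD2, and PPIB (323 ± 64.1) were also lowest in replicate 1, while CRTAP (225 ± 4.88) was nearly level. In the list 6 of 8 genes were lowest in replicate 1, against 40.3% of all genes tested, and 1 of 8, PLOD2, was highest there, against 39.3%.

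**Figure D4:**
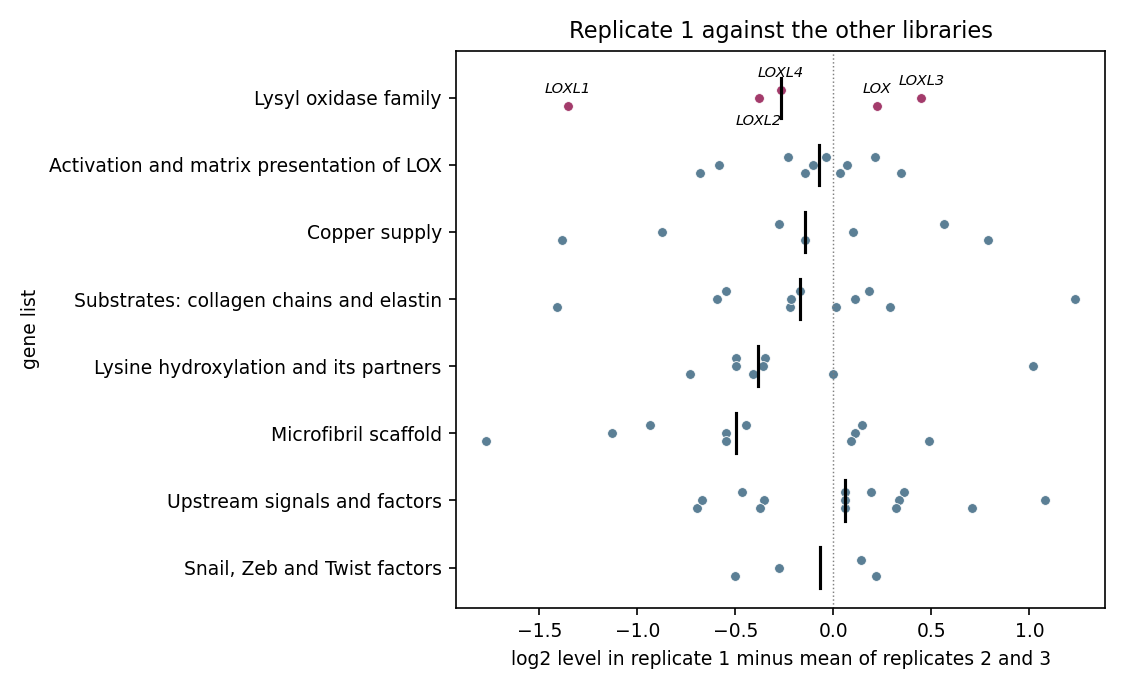
Log2(CPM + 0.5) in replicate 1 minus the mean of replicates 2 and 3, with 1 point per gene that had at least 10 counts in each library, by list, and the list median as a black bar. In the family LOXL1 lies at -1.36 and LOXL3 at 0.45, with points on both sides of 0 in each list drawn.

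Copper reaches these enzymes in the secretory pathway through a plasma membrane importer, a cytosolic chaperone and a pump. The importer SLC31A1 was read at 308, 305 and 270 CPM (294 ± 21.1, SD, n = 3), and LOX gave 542, 479 and 520 reads per 100 of it. The copper chaperone ATOX1, which hands copper to the pumps, stood at 17.5, 35.7 and 29.4 CPM. Of the pumps, ATP7B had 36, 12 and 15 reads, and ATP7A, the pump that supplies lysyl oxidases, was not analysed here. All 7 of 7 copper genes with a row reached 1 CPM in every library, as did 34.6% of genes in the table and 61.2% of those with a read.

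None of the 6 other amine oxidases listed reached 1 CPM in every library, and 1 did without replicate 2. In every library 34.6% of genes in the table reached 1 CPM, and 61.2% of those with a read. AOC1 and MAOB had 0 reads, AOC2 had 12, 1 and 10, AOC3 4, 3 and 21, MAOA 10, 4 and 2, and IL4I1 5, 11 and 0. The transglutaminases, which crosslink matrix through glutamine rather than through aldehydes, were at or near 0 as well: TGM1 and TGM3 had 0 reads and TGM2 had 2, 2 and 0. A low count here may also mean that reads were not assigned to the gene. The summed level of the other amine oxidases was 3.68 to 4.64 CPM, against 2414 to 2486 CPM for the lysyl oxidases.

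All 14 of 14 genes in the list of upstream signals and factors reached 1 CPM in every library. The same level was reached by 34.6% of genes in the table and by 61.2% of those with a read. TEAD1 (483 ± 64.3), YAP1 (403 ± 196), HIF1A (308 ± 96.7), SMAD2 (148 ± 27.8), SMAD4 (144 ± 5.89) and TGFBR2 (101 ± 20.5) were at 100 CPM or more. HIF1A, the oxygen-regulated factor, stood at 413, 287 and 223 CPM and YAP1, a mechanically regulated coactivator, at 611, 377 and 221, both highest in replicate 1 as LOX and LOXL3 were. TGFBR2, a receptor of transforming growth factor beta, stood at 84.5, 94.5 and 124 CPM, lowest in replicate 1. In this list 9 of 14 genes were highest in replicate 1, against 39.3% of all genes tested. The other 5 were lowest there, against 40.3%. A link of these factors with the family was not tested. Among the factors of mesenchymal transition, with which LOXL2 has been linked, ZEB1 stood at 237 ± 14.2 and SNAI2 at 205 ± 42.3, while SNAI1 had 2, 4 and 21 reads.

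Genes with the most similar profile were found by the smallest Euclidean distance of log2(CPM + 0.5) over the 3 libraries among 10433 other genes, which joins likeness in level and in deviation. For LOX these were the receptor NOTCH2 (distance 0.14), the caveola protein gene CAV1 (0.16) and the chaperone gene HSPA8 (0.20). For LOXL2 they were LASP1 (0.083), an actin-binding protein gene, SERPINH1 (0.098) and MFGE8 (0.11), a secreted milk fat globule protein gene. For LOXL4 they were ID2, PSENEN and FUBP1, at 0.032 to 0.048. For LOXL3 they were CCNB1, CCNH and SETMAR, at 0.028 to 0.083.

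LOXL1 had the most isolated profile of the family. Its nearest genes were LRRFIP2 (0.24), LOC100300624 (0.32) and the laminin gene LAMB2 (0.33), and 1 gene lay within 0.25 of it, against 6 for LOX, 14 for LOXL2, 24 for LOXL3 and 48 for LOXL4. LAMB2 stood at 19.7, 59.4 and 54.3 CPM, also low in replicate 1. With 3 libraries, such likeness is a description and many genes share a profile.

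Neighbouring genes in the RefSeq annotation of ARS-UCD2.0 were read to see whether they could lend reads to a member, because the strand setting of the counting is not known. The spans of LOX, LOXL1 and LOXL4 overlapped no other listed gene. LOXL3 overlapped HTRA2, a mitochondrial protease gene, which had 130, 108 and 142 reads. Reads where these spans overlap may be dropped or counted for the other gene. LOXL2 overlapped a small nucleolar RNA gene that was not analysed here. SRFBP1, next to LOX, had 378, 163 and 84 reads, and STOML1, next to LOXL1, had 3, 1 and 4.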

How the data were processed

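RNA was measured by sequencing in 3 replicates of serum-starved BFF116 cells. Per the labels' protocols, cDNA was amplified isothermally from a single primer (NuGEN Ovation kit), sonicated and made into libraries with 10 PCR cycles, read as single reads of 100 bases. The deposited table holds raw read counts per gene symbol, made by the authors per the submitters' processing notes with HTSeq 0.6.1, after TopHat2 2.0.10 and bcl2fastq 2.18.0.12. No source used here gives the genome build, the annotation or the strand setting. The 5 summary rows stayed out of library sizes, and reads with several alignments (7.93, 7.52 and 7.99% of counted reads) are in no gene count.

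CPM was computed with edgeR 4.0.16 in R 4.3.3 from TMM effective library sizes (factors 0.978, 1.02 and 0.998), and log2 values are log2(CPM + 0.5). Levels per length had been planned, but the gene table gives genomic spans only, so levels were not divided by length. The spread test compared a negative binomial Pearson statistic at edgeR's trended dispersion with chi-square on 2 degrees of freedom, with Benjamini-Hochberg adjustment over all 10434 genes. It was tested on simulated data. Libraries differed beyond sampling noise, with a chi-square per degree of freedom of 10.5 to 36.7 per pair, and were kept as 3 replicates. If the replicates share a culture, p-values measure only the spread between these samples. Reads were amplified by PCR and carry no molecular identifiers, so intervals and the limit that 0 reads allow (3 counts) cover counting error only.

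The members and lists were chosen with earlier results of these data known. Named genes were all 5 members, genes of the pathway lists at 100 CPM or more, those under 1 CPM in some library where these numbered 6 or fewer, and the 3 nearest genes of each member. The smooth muscle markers, BMP1, ATOX1, ATP7B, COL4A1 and COL4A2, the neighbours and the ratios between list genes were added after their values were seen. The 5 listed genes without a row were not analysed here. Alternatives were DESeq2 1.42.0 size factors, no scaling factor, other pseudocounts, other filters, the deviance test and leaving out each library.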

Additional observations from a re-analysis of the deposited data

How the results depend on the processing

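The order of the members was the same in each library, so the 10 pair ratios could not change direction with a library left out, and scaling nearly cancels within a library. Pseudocounts of 0.1 and 1 did not change their direction. Member levels moved by less than 1 SD with DESeq2 size factors and with total counts. Leaving out 1 of 3 libraries cannot move a mean by 1 SD, so it says nothing of the stability of the levels and shares. Exact tests on 2 libraries cannot give a p below 0.5. The planned values per transcript or coding length were not run, because no such length was at hand. The count of genes past the spread test, 2 as reported, was 5 with DESeq2 size factors, 15 with the deviance test and between 0 and 6 without a single library, and 0 members were called in any of these. The adjusted p of LOXL1 ranged from 0.55 with the deviance test to 0.9995 without replicate 1. The leukocyte list had 0 measured genes, not 1, when 10 or more counts in every library were required, and the other amine oxidases had between 0 and 1 without a single library. The other list counts stayed within 1.5 times of those reported. No paired analysis was possible because the series has 1 group. Depth limits LOXL3 most, with 54 to 108 reads per library.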
